A study of Mus musculus with 38 samples.

Results

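Expression of the PEA3 group of ETS transcription factors, *Etv1*, *Etv4* and *Etv5*, was followed in thyroids of 38 FVB/N mice, 1 GeneChip Mouse Gene 1.0 ST array per mouse. The 3 genes were taken by symbol from 19938 genes with a probe set of a single symbol, and 5 of 35556 probe sets carry one of their symbols: 2 for *Etv1*, 1 for *Etv4* and 2 for *Etv5*. For each gene the probe set with the highest mean over the 38 arrays stood for it, and the other is given beside it. Transgenic mice carried human *BRAF*V600E cDNA with a 2HA tag under the bovine thyroglobulin promoter, which restricts the transgene to follicular cells. A mouse was *BRAF*(+) where the mutated RNA was found in the gland, and each gland was cut transversely, with one piece for RNA and the other for histology. There were 10 papillary thyroid carcinomas (PTC) and 10 borderline lesions (BL, with altered nuclei but no carcinoma), all *BRAF*(+). Benign hyperplastic lesions (BHL) came from 4 *BRAF*(+) and 4 *BRAF*(-) mice, and asymptomatic thyroids (AT) from 5 *BRAF*(+) and 5 *BRAF*(-) mice. Ages ran from 6 to 21 months in PTC, 4 to 21 in BL, 4 to 11 in *BRAF*(+) BHL, 6 to 24 in *BRAF*(-) BHL, 7 to 11 in *BRAF*(+) AT and 4 to 12 in *BRAF*(-) AT. The *BRAF*(-) mice were genotyped as non-transgenic except the 24-month *BRAF*(-) BHL mouse, M_764, which had the transgene but no transgene RNA. The mice came from 3 transgenic lines, tg1, tg2 and tg3, which the sample labels do not give for each mouse. By the study's table of groups, the *BRAF*(+) non-malignant mice were mostly of tg3 and the *BRAF*(-) mice mostly of tg2. The youngest PTC mice were all of tg2, for which the study reports more BRAFV600E protein than for tg3. Line was thus uneven between the groups compared here, and its part was not tested.

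PEA3 factors bind DNA through an ETS domain and are induced and phosphorylated by ERK, the last kinase of the RAS, RAF and MEK cascade. *Etv4* and *Etv5* are known as immediate readouts of FGF receptor and MAPK signalling, and *Etv1* as a factor of human prostate and gastrointestinal stromal tumours. The repressor capicua, encoded by *Cic*, holds these genes down until ERK removes it, and the ubiquitin ligase COP1 degrades the proteins. BRAFV600E is a kinase that signals to MEK without RAS and is the most common mutation of human PTC. The measurements that bear on such genes here are the level in every mouse, the difference between groups, and whether the 3 genes vary together from mouse to mouse. In bulk tissue, fewer cells that express a gene and less RNA per cell cannot be told apart.

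The RefSeq windows of 250 bases before a transcript start (build GRCm38.p6) were searched on both strands for AGGAAG (the PEA3 motif), TGANTCA (the AP-1 motif), TGACGTCA (the cAMP response element), the octamers TGAATGAA and TCAATGAA bound by capicua, and TGAATG, with which the first octamer begins. Windows were at hand for 2 starts of *Etv1* and 2 of *Etv5*. AGGAAG was found once, beginning 8 bases before the upstream *Etv1* start on the plus strand at chr12:38779832-38780081, and 29.5% of 32851 windows hold it. TGAATG was found 3 times, beginning 242, 198 and 129 bases before the downstream *Etv5* start, the last as its reverse complement, on the minus strand at chr16:22438369-22438618. A window with TGAATG made up 10.9% of all, and one with 3 or more copies 0.131%. The octamers (1.7% of windows), the AP-1 motif (6.75%) and the cAMP response element (1.55%) were in none of the 4 windows, which says only that these letters are absent there. The windows with a match are shown, and capitals mark the matches.
Etv1 upstream start: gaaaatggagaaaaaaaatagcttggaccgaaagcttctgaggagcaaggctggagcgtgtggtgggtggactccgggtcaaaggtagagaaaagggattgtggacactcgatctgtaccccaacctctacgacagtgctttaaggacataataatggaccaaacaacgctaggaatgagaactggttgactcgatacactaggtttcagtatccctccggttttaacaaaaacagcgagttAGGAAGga
Etv5 downstream start: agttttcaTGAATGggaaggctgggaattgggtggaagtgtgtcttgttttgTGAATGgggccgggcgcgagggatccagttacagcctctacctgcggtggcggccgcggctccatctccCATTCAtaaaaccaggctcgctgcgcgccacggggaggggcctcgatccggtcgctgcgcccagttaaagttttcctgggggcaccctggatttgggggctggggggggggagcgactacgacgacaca

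*Etv1* had the widest separation of *BRAF*(+) and *BRAF*(-) mice. Its log2 signal had a lowest, median and highest value of 9.14, 9.42 and 9.89 in PTC, and of 8.16, 9.25 and 9.77 in BL. The *BRAF*(+) BHL mice lay at 9.02, 9.51, 9.56 and 9.70, against 7.39, 7.61, 8.02 and 8.15 in *BRAF*(-) BHL. The *BRAF*(+) AT mice lay at 7.52, 7.98, 8.58, 8.93 and 9.12, against 7.38, 7.58, 7.67, 7.70 and 7.79 in *BRAF*(-) AT. With this probe set all PTC, BL and *BRAF*(+) BHL mice were thus above every *BRAF*(-) mouse, and the *BRAF*(+) AT mice reached from the *BRAF*(-) level to that of the lesions. The margin was narrow, with BL M_416 at 8.16 and *BRAF*(-) BHL M_946 at 8.15. With the other *Etv1* probe set M_416 (7.63) lay below M_946 (7.82). How many of all probe sets separate the mice in this way was not counted. The order of the group means was *BRAF*(+) BHL 9.45 ± 0.30, PTC 9.43 ± 0.22, BL 9.15 ± 0.50, *BRAF*(+) AT 8.43 ± 0.67, *BRAF*(-) BHL 7.79 ± 0.35 and *BRAF*(-) AT 7.63 ± 0.15 (SD, n = 4, 10, 10, 5, 4 and 5).

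*Etv4*, the founding member of the group, was higher in every PTC and *BRAF*(+) BHL mouse than in any *BRAF*(-) mouse, but not in every BL or *BRAF*(+) AT mouse. Its log2 signal had a lowest, median and highest value of 6.48, 6.62 and 7.22 in PTC, and of 5.84, 6.60 and 6.93 in BL. The *BRAF*(+) BHL mice lay at 6.49, 6.67, 6.73 and 6.76, against 5.28, 5.54, 5.59 and 5.71 in *BRAF*(-) BHL, and these groups did not overlap. How many of all probe sets separate these groups was not counted. The *BRAF*(+) AT mice lay at 5.58, 5.61, 5.85, 6.32 and 6.38, against 5.51, 5.63, 5.74, 5.79 and 6.19 in *BRAF*(-) AT, which overlapped. Means were 6.69 ± 0.23 in PTC, 6.66 ± 0.12 in *BRAF*(+) BHL, 6.48 ± 0.39 in BL, 5.95 ± 0.38 in *BRAF*(+) AT, 5.77 ± 0.26 in *BRAF*(-) AT and 5.53 ± 0.18 in *BRAF*(-) BHL (SD). In BL, 3 mice lay at 5.84, 5.90 and 6.11, within the range of *BRAF*(-) AT, and 7 lay above all *BRAF*(-) mice.

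*Etv5*, a factor known for its part in FGF-dependent branching and stem cell maintenance, had the narrowest separation. Its log2 signal had a lowest, median and highest value of 8.30, 8.44 and 8.97 in PTC, and of 7.54, 8.48 and 8.70 in BL. The *BRAF*(+) BHL mice lay at 8.16, 8.63, 8.74 and 8.79, against 7.47, 7.87, 8.02 and 8.91 in *BRAF*(-) BHL. The value of 8.91 belonged to M_764, and the other 3 *BRAF*(-) BHL mice lay below every *BRAF*(+) BHL mouse. The *BRAF*(+) AT mice lay at 7.41, 7.44, 7.97, 8.03 and 8.10, against 7.10, 7.44, 7.52, 8.01 and 8.07 in *BRAF*(-) AT, over nearly the same range. Means were 8.58 ± 0.29 in PTC, 8.58 ± 0.29 in *BRAF*(+) BHL, 8.36 ± 0.36 in BL, 8.07 ± 0.61 in *BRAF*(-) BHL, 7.79 ± 0.34 in *BRAF*(+) AT and 7.63 ± 0.41 in *BRAF*(-) AT (SD).

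**Figure D1:**
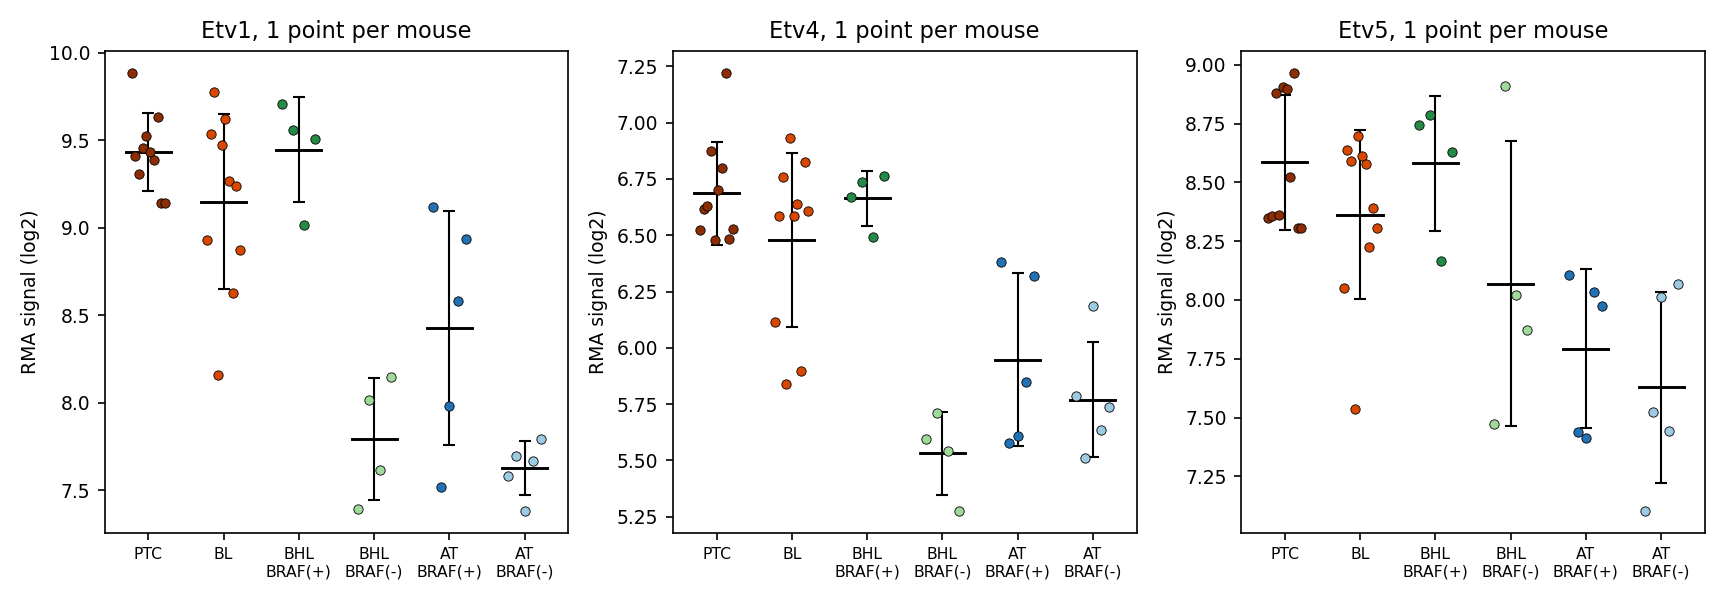
Log2 RMA signal (vertical axis) of Etv1, Etv4 and Etv5 in PTC, BL and the BHL and AT mice by BRAF status (horizontal axis), 1 point per mouse, with the mean (line) and SD (bar). For the Etv1 probe set shown, all PTC, BL and BRAF(+) BHL mice lie above every BRAF(-) mouse, the lowest BL mouse only narrowly. How many of all probe sets do so was not counted. For Etv4, 3 BL mice lie at 5.84 to 6.11, and for Etv5 the BRAF(-) BHL mouse at 8.91 stands among the lesions.

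In the 18 non-malignant thyroids, the comparison of 9 *BRAF*(+) with 9 *BRAF*(-) mice asks what the oncogene changes before carcinoma. *Etv1* rose, with a log2 difference of 1.13 (SE 0.19), which is 2.19-fold (95% CI 1.66 to 2.90; limma with lesion and sex in the model, adjusted p = 0.0026). *Etv4* was 1.5-fold higher (95% CI 1.18 to 1.91) and missed the threshold (limma, adjusted p = 0.0529), and *Etv5* was 1.20-fold higher (95% CI 0.96 to 1.49, limma, adjusted p = 0.431). One member of 3 thus passed, where 2.19% of all probe sets passed as higher and 1.91% as lower at an adjusted p under 0.05. For *Etv1*, 7 of 9 *BRAF*(+) mice were above the highest *BRAF*(-) mouse, for *Etv4* 6 of 9, and for *Etv5* 0 of 9. The *Etv5* count hangs on M_764, the highest *BRAF*(-) mouse at 8.91. The next *BRAF*(-) mouse, AT M_957, was at 8.07, below every *BRAF*(+) BHL mouse (8.16 or more). Of *BRAF*(+) AT only M_1003 (8.10) was above M_957. Such counts were not made over all probe sets. *Etv4* passed the same test without the sex term (adjusted p = 0.0421) or after the study's filter on flat probe sets (adjusted p = 0.044). That filter keeps probe sets for their spread over all the mice, these 18 among them, so the pass after it is no independent support. *Etv4* also passed without any one of *BRAF*(+) AT M_523 (0.0276), M_779 (0.0185) or M_945 (0.0467), or of *BRAF*(-) AT M_524 (0.0475) or M_940 (0.0252), each an adjusted p. The former held the lowest *BRAF*(+) and the latter the highest *BRAF*(-) values of *Etv4*, so leaving them out widens the difference. These were 5 of 18 such fits, and the others did not pass, with an adjusted p of up to 0.116.

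Split by lesion, the difference between *BRAF*(+) and *BRAF*(-) mice was larger in hyperplastic lesions than in asymptomatic glands, but that contrast did not pass. In BHL, *Etv1* was 3.15-fold (95% CI 2.17 to 4.56, adjusted p = 0.000209) and *Etv4* 2.19-fold higher in *BRAF*(+) mice (95% CI 1.64 to 2.94, adjusted p = 0.000768). *Etv5* was 1.43-fold higher in *BRAF*(+) BHL (95% CI 1.02 to 2.0, adjusted p = 0.227), and 2.98% of all probe sets were called higher in this comparison. Without M_764, the mouse with a silent transgene, *Etv5* passed, with a log2 difference of 0.77 (adjusted p = 0.0438). M_764 was also the oldest mouse, at 24 months. Its mean log2 signal of skeletal muscle genes was 9.62, against 5.33 to 5.70 in the other *BRAF*(-) BHL mice. Which of these goes with its *Etv5* level was not tested and cannot be told apart in 1 mouse. Without any other of the 8 mice *Etv5* did not pass, with an adjusted p of up to 0.473. In AT, none of the 3 passed: the *BRAF*(+) level was 1.67-fold that of *BRAF*(-) mice for *Etv1* (95% CI 1.20 to 2.34, adjusted p = 0.216), 1.13-fold for *Etv4* (0.87 to 1.47, 0.843) and 1.08-fold for *Etv5* (0.79 to 1.46, 0.939), where 0.222% of probe sets were called higher. The interaction, the *BRAF* effect in BHL minus that in AT, had a log2 size of 0.95 for *Etv1*, 1.0 for *Etv4* and 0.46 for *Etv5*. Its adjusted p was 0.396, 0.203 and 0.702 by limma, and 0.0281% of probe sets passed as higher. Among *BRAF*(-) mice no member passed between the lesion and the asymptomatic gland: *BRAF*(-) BHL against *BRAF*(-) AT gave log2 differences of 0.12 for *Etv1*, -0.24 for *Etv4* and 0.40 for *Etv5*, with 95% CIs of -0.39 to 0.63, -0.64 to 0.16 and -0.07 to 0.86. Without M_764, the *Etv5* difference was 0.14. Of all probe sets 0% were called higher in that comparison by limma, with 1563 at an unadjusted p under 0.05.

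Against *BRAF*(-) AT, the glands nearest to normal, all 3 members were higher in carcinomas. In PTC *Etv1* was 3.36-fold higher (95% CI 2.51 to 4.49, adjusted p = 3.7e-07), *Etv4* 1.89-fold (1.5 to 2.38, adjusted p = 0.00018) and *Etv5* 1.86-fold (1.43 to 2.43, adjusted p = 0.00107). For each gene all 10 PTC mice were above all 5 *BRAF*(-) AT mice with the probe set that stood for it. With the other *Etv5* probe set PTC M_700 (7.49) lay below *BRAF*(-) AT M_940 (8.05) and M_957 (7.89). The share of all probe sets that separate these mice was not counted. At this threshold 9.8% of probe sets (3484) were called higher and 9.01% (3202) lower, which became 2941 higher and 4454 lower with each array centred on its median, without a change in the members' calls. In BL the members were 2.76-fold (2.06 to 3.69, adjusted p = 1.6e-05), 1.64-fold (1.30 to 2.06, adjusted p = 0.00477) and 1.60-fold higher (1.23 to 2.08, adjusted p = 0.0178) for *Etv1*, *Etv4* and *Etv5*, where 6.05% of probe sets were called higher and 5.41% lower. The *Etv5* call in BL was lost without *BRAF*(-) AT M_524 (log2 difference 0.59, adjusted p = 0.0609) or M_956 (0.59, adjusted p = 0.059), and in females only both *Etv4* (0.57, adjusted p = 0.0848) and *Etv5* (0.53, adjusted p = 0.178) missed it.

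The same glands were also set against *BRAF*(-) BHL, the hyperplastic lesions without oncogene RNA. In PTC *Etv1* was 3.08-fold (adjusted p = 8.3e-06) and *Etv4* 2.23-fold higher (adjusted p = 3.3e-05), and *Etv5* 1.41-fold higher (95% CI 1.07 to 1.88, adjusted p = 0.104), where 6.02% of probe sets were called higher. Without M_764 the *Etv5* difference between PTC and *BRAF*(-) BHL was 0.76 on the log2 scale and passed (adjusted p = 0.0149). Without any other of the 14 mice it did not, with an adjusted p of up to 0.361. In BL *Etv1* was 2.54-fold (adjusted p = 0.000295) and *Etv4* 1.93-fold higher (adjusted p = 0.000932), and *Etv5* 1.21-fold higher (95% CI 0.91 to 1.61, adjusted p = 0.496), where 2.46% were called higher. That *Etv5* difference was 0.28 on the log2 scale, 0.54 without M_764 (adjusted p = 0.138) and 0.14 without *BRAF*(-) BHL M_701 (adjusted p = 0.829).

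Among *BRAF*(+) mice, PTC stood apart from the asymptomatic glands for all 3 members with the probe sets that stood for them, while BL overlapped them. PTC exceeded *BRAF*(+) AT 2.01-fold for *Etv1* (95% CI 1.51 to 2.67, adjusted p = 0.00274), 1.67-fold for *Etv4* (1.33 to 2.09, 0.00401) and 1.73-fold for *Etv5* (1.33 to 2.25, 0.00634), with no overlap of the 10 and 5 mice for any of them and 8.49% of probe sets called higher. With the other probe sets of *Etv1* and *Etv5* the groups did overlap. The lowest PTC mouse was then at 8.63 and 7.49, and the highest *BRAF*(+) AT mouse at 8.69 and 7.94. The share of all probe sets without overlap was not counted. BL exceeded *BRAF*(+) AT 1.65-fold for *Etv1* (95% CI 1.24 to 2.20), which passed narrowly (adjusted p = 0.0423), 1.44-fold for *Etv4* (1.15 to 1.81, 0.0547) and 1.49-fold for *Etv5* (1.14 to 1.93, 0.0679), where 1.98% were called higher. That *Etv1* call was lost without any of 10 of the 15 mice, with log2 differences down to 0.53 and an adjusted p of up to 0.153, while *Etv4* and *Etv5* passed without BL M_416 (adjusted p = 0.023 and 0.0225). *Etv4* also passed without BL M_649 (0.0271), BL M_1005 (0.0489) or *BRAF*(+) AT M_1003 (0.0332). Over the 15 fits the adjusted p reached 0.175 for *Etv4* and 0.217 for *Etv5*. *BRAF*(+) BHL exceeded *BRAF*(+) AT by about as much as PTC did, 2.05-fold for *Etv1* (1.44 to 2.91), 1.64-fold for *Etv4* (1.25 to 2.17) and 1.74-fold for *Etv5* (1.27 to 2.40), but with 4 mice against 5 the adjusted p was 0.0563, 0.075 and 0.0809 by limma, and 0.0225% of probe sets were called higher. Without *BRAF*(+) AT M_1003 the first 2 of these passed (adjusted p = 0.0229 for *Etv1* and 0.035 for *Etv4*). Without any other mouse they did not, with an adjusted p of up to 0.151 and 0.181.

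No step between the *BRAF*(+) lesions passed the threshold for any member. PTC minus BL was 0.28 for *Etv1* (95% CI -0.06 to 0.62), 0.21 for *Etv4* (-0.06 to 0.47) and 0.22 for *Etv5* (-0.09 to 0.53) on the log2 scale. PTC minus *BRAF*(+) BHL was -0.03 (-0.48 to 0.42), 0.02 (-0.33 to 0.38) and -0.01 (-0.42 to 0.40), and BL minus *BRAF*(+) BHL -0.31 (-0.76 to 0.14), -0.19 (-0.54 to 0.17) and -0.23 (-0.64 to 0.18), in the same order of genes. The share of all probe sets called higher by limma was 0% in each of these 3 comparisons, with 774, 2617 and 2575 at an unadjusted p under 0.05. The widest of these limits was -0.76, for *Etv1* in BL minus *BRAF*(+) BHL, and the intervals leave room for up to 1.54-fold between PTC and BL for the same gene. The 13 comparisons of groups share their mice, *BRAF*(-) AT among them, so the rows of one gene are not independent of each other.

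**Figure D2:**
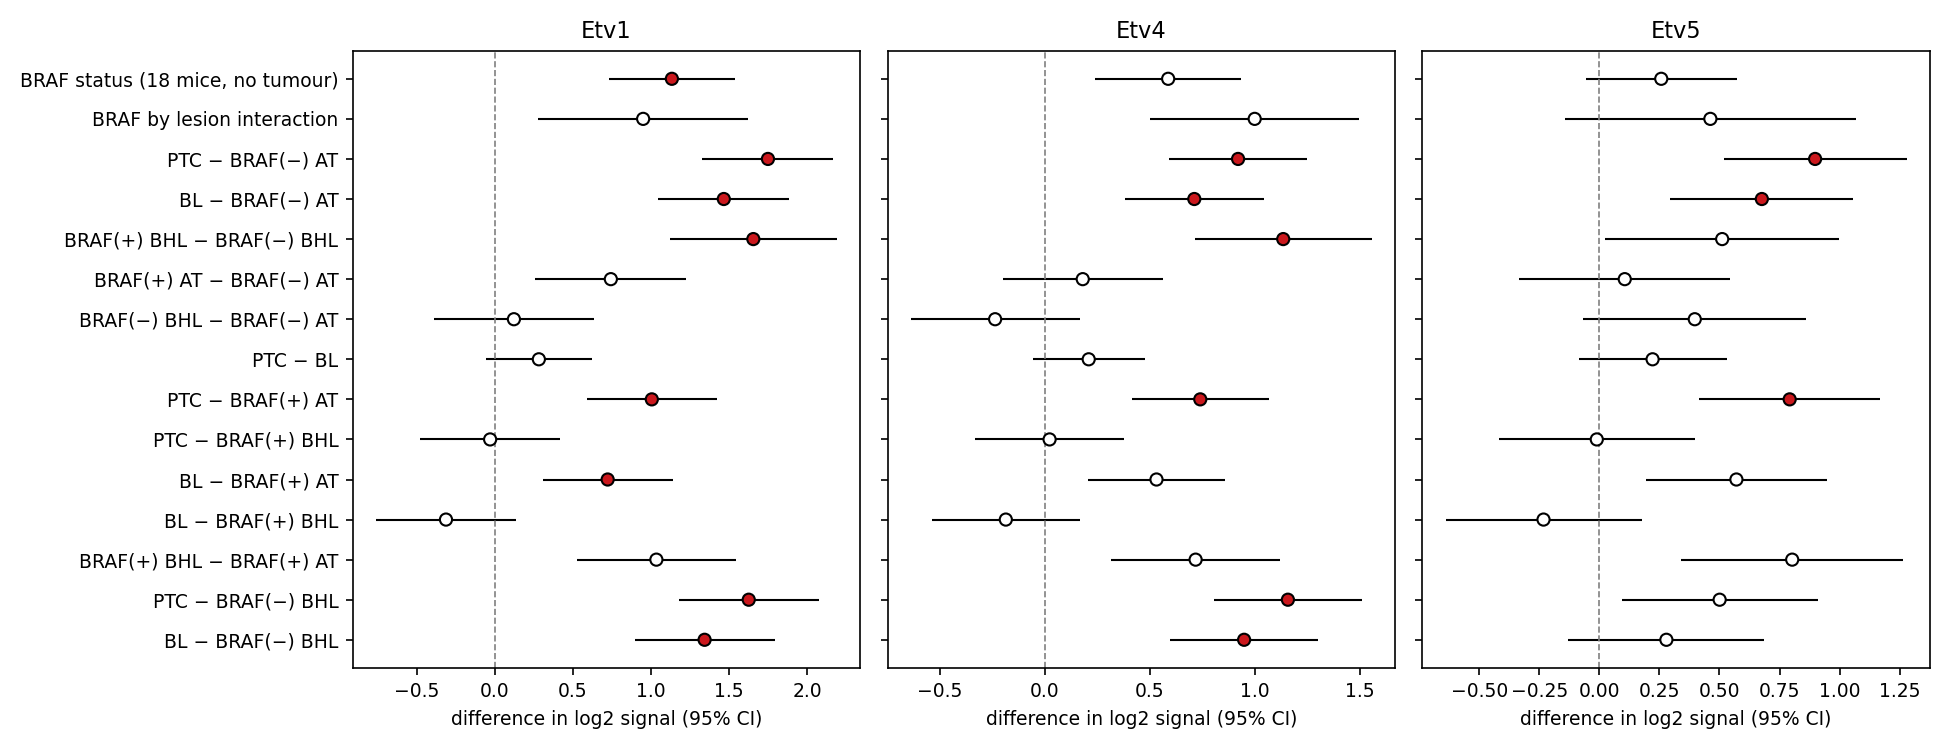
Difference in log2 signal with its 95% CI (horizontal axis) for each comparison (rows, first group minus second), from limma with sex in the model, and filled red where the adjusted p over all probe sets is under 0.05. Etv1 is filled in 8 of 15 rows, Etv4 in 6 and Etv5 in 3, and none of the 3 rows between BRAF(+) lesions is filled.

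Both *Etv1* and *Etv5* have a second probe set, and the choice between them matters for the identity of the signal. Probe sets of this array are numbered along the chromosomes, and 0 of the 8 numbered neighbours of the *Etv1* probe set used above, 10406934, lie on chromosome 12, where *Etv1* is, whereas 8 of 8 lie on chromosome 13. For *Etv5*, 0 of 8 neighbours of 10363901 lie on its chromosome 16 and 8 of 8 on chromosome 10. Of 21695 probe sets with a single symbol that could be placed, 2.72% have no neighbour on the chromosome of their gene, and what these 2 probe sets read besides the named gene was not tested. The second probe sets, 10395457 for *Etv1* and 10438626 for *Etv5*, have 8 of 8 neighbours on the gene's own chromosome, as has 10391490 for *Etv4*. They gave 2.16-fold for *Etv1* in *BRAF*(+) against *BRAF*(-) non-malignant thyroids (adjusted p = 0.00451) and 1.29-fold for *Etv5* (adjusted p = 0.341), close to the values above. For *Etv1* the group means of the second probe set were 8.88 in PTC, 8.59 in BL, 8.92 in *BRAF*(+) BHL, 7.32 in *BRAF*(-) BHL, 7.88 in *BRAF*(+) AT and 7.07 in *BRAF*(-) AT. For *Etv5* they were 8.30 in PTC, 8.04 in BL, 8.39 in *BRAF*(+) BHL, 7.67 in *BRAF*(-) BHL, 7.59 in *BRAF*(+) AT and 7.33 in *BRAF*(-) AT. With the second probe set 2 calls were lost, *Etv5* in BL against *BRAF*(-) AT (log2 difference 0.62, adjusted p = 0.0921) and *Etv1* in BL against *BRAF*(+) AT (0.71, adjusted p = 0.0563), and neither gene changed direction in any comparison.

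**Figure D3:**
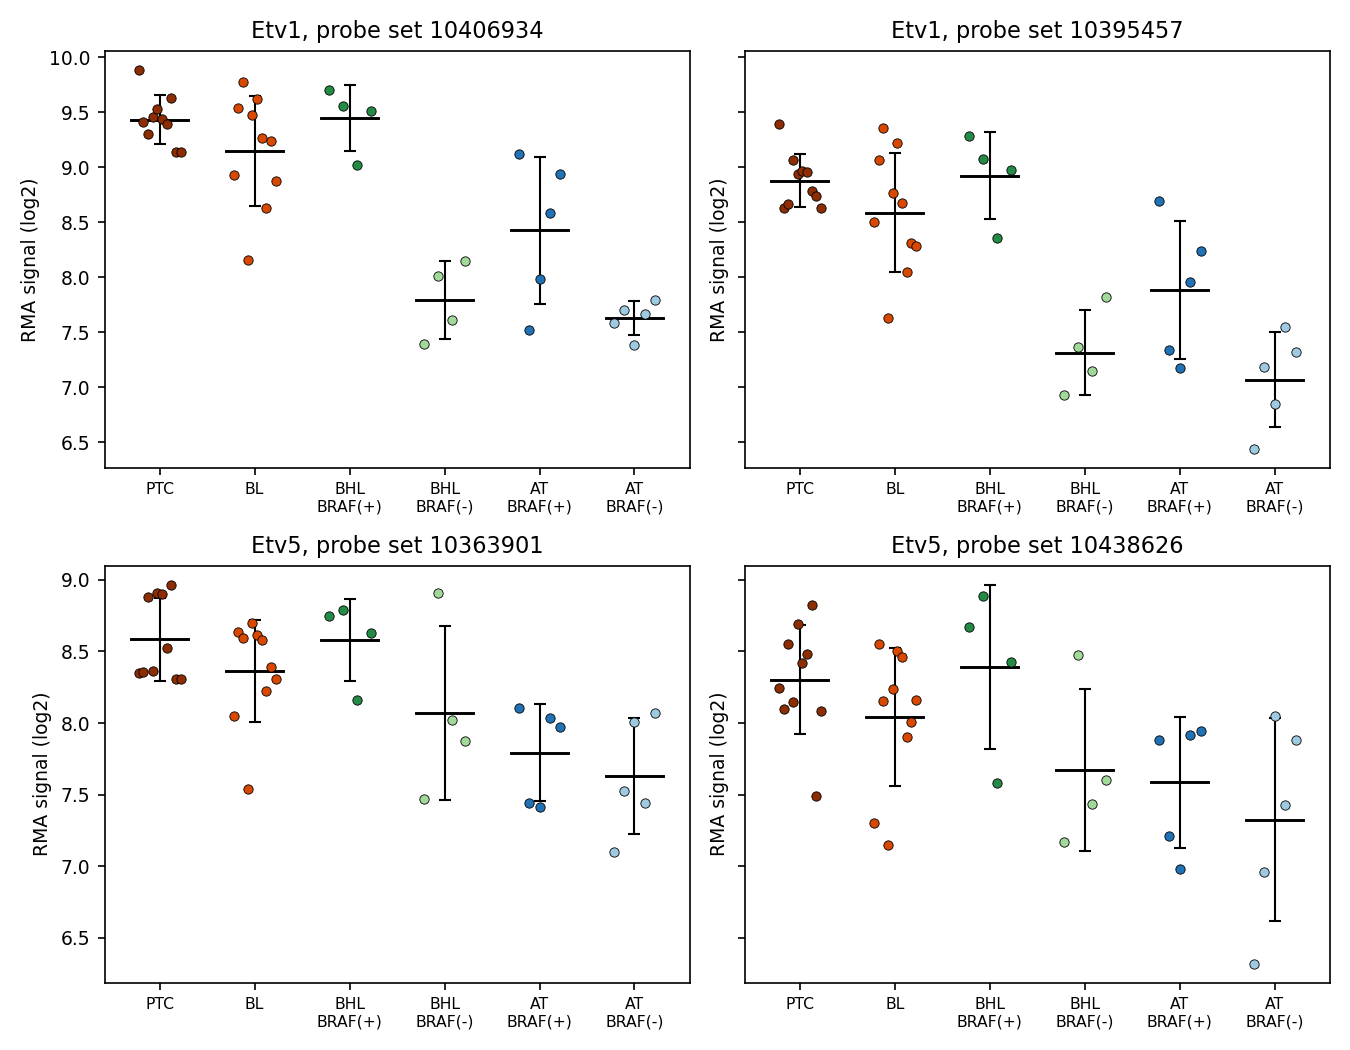
Log2 RMA signal (vertical axis) in the 6 groups (horizontal axis) for both probe sets of Etv1 and of Etv5, 1 point per mouse, with mean and SD; the left column is the probe set with the higher mean. The order of the groups is alike in both columns, with BRAF(+) BHL and PTC highest and BRAF(-) AT lowest.

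Within a group the same mice tended to be high or low for all 3 genes. Mouse M_416 was the lowest BL for each of them, at 8.16 for *Etv1*, 5.84 for *Etv4* and 7.54 for *Etv5*. Mice M_649 and M_1005 were the next lowest BL mice for *Etv4* and *Etv5*. Among *BRAF*(+) AT, M_523 and M_779 held the lowest 2 places and M_1003 the highest for every member, and M_958 was the lowest *BRAF*(+) BHL for every member. M_958 was the only male of its group and the youngest, at 4 months. Its mean log2 signal of brown adipocyte genes was 9.76, against 5.66 to 5.90 in the rest of the group. These traits cannot be told apart in 1 mouse. In PTC, M_686 was highest for *Etv4* and *Etv5*, but M_1002, highest for *Etv1* at 9.89, was the third from the bottom for *Etv4* (6.52) and *Etv5* (8.35).

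After each group's mean was removed, the members were correlated over the 29 *BRAF*(+) mice. *Etv1* and *Etv4* had r = 0.76 and rho = 0.70, *Etv1* and *Etv5* r = 0.76 and rho = 0.70, and *Etv4* and *Etv5* r = 0.71 and rho = 0.63. Two-sided permutation within groups gave p = 3e-05, 4e-05 and 4e-05 for r (adjusted 6e-05 each over 6 relations) and 0.0003, 8e-05 and 0.00071 for rho (adjusted 0.0006, 0.00039 and 0.00107). Without the 2 mice farthest from the median on the horizontal axis, r was 0.69, 0.66 and 0.65 (permutation p = 0.00075, 0.00063 and 0.00123). Within the 10 BL mice alone r was 0.82, 0.91 and 0.83 (adjusted permutation p = 0.00573, 0.00342 and 0.00573), and rho 0.55, 0.84 and 0.66 (adjusted 0.124, 0.0124 and 0.0651). Within the 10 PTC mice r was 0.27, 0.22 and 0.39 (adjusted permutation p = 0.816 each) and rho 0.16, 0.50 and 0.44 (adjusted 0.818, 0.408 and 0.408). Without the 2 mice farthest from the median on the horizontal axis, r in BL was 0.50, 0.82 and 0.74 (permutation p = 0.218, 0.0108 and 0.0484), so that the relation of *Etv1* and *Etv4* in BL did not pass without those mice. In PTC r was then 0.65, 0.56 and 0.25 (permutation p = 0.0942, 0.155 and 0.562). Leaving out the extremes also narrows the range, which by itself can lower r. The values thus show no firm contrast between BL and PTC, and the difference between these groups was not tested.

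**Figure D4:**
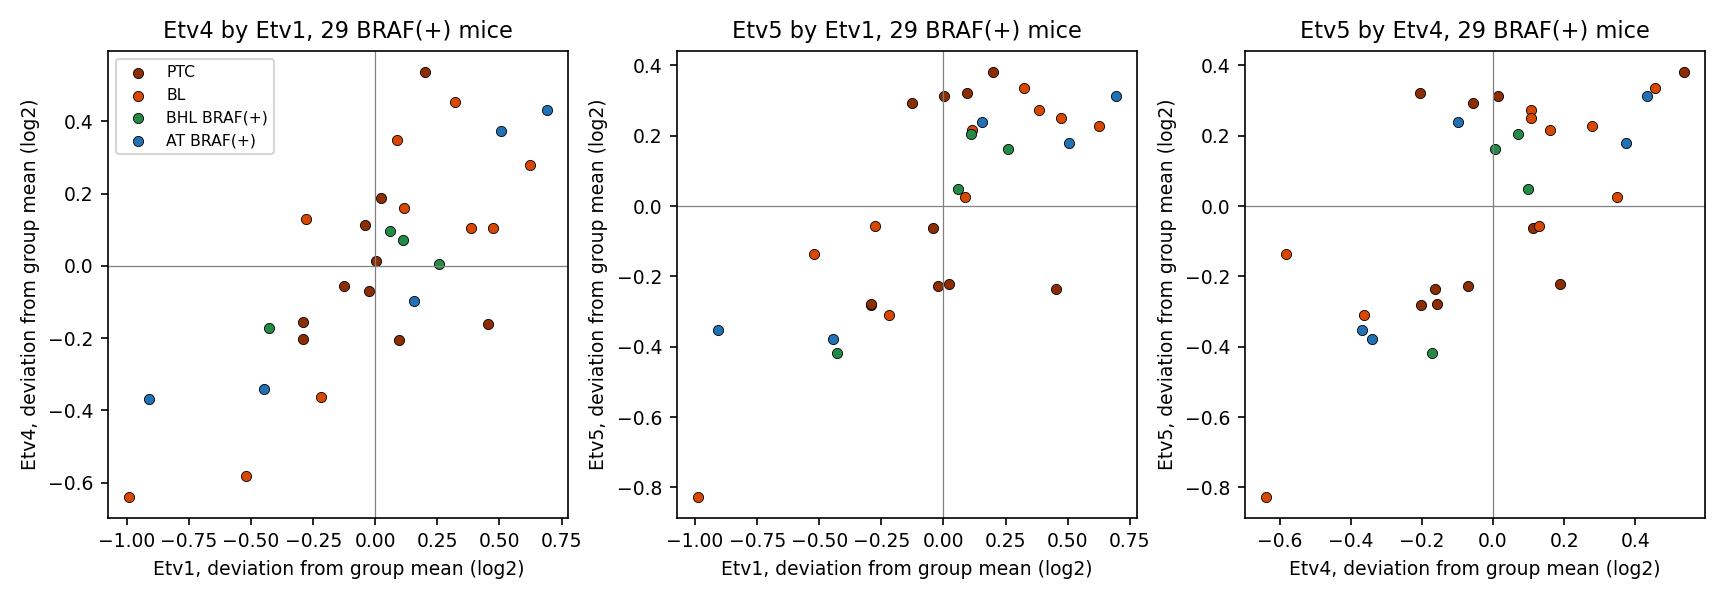
Deviation of each of 29 BRAF(+) mice from its group mean, in log2 units, for the 3 pairs of Etv1, Etv4 and Etv5 (both axes), coloured by group. The pairs have r of 0.76, 0.76 and 0.71, with 1 BL mouse, M_416, at the low end of each.

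*Braf* itself, the mouse gene of the kinase, was higher in every *BRAF*(+) group mean than in both *BRAF*(-) ones. Its log2 signal averaged 9.87 ± 0.24 in PTC, 9.70 ± 0.33 in BL, 9.93 ± 0.22 in *BRAF*(+) BHL, 9.10 ± 0.20 in *BRAF*(-) BHL, 9.38 ± 0.14 in *BRAF*(+) AT and 9.13 ± 0.24 in *BRAF*(-) AT (SD), and rose by 0.50 in *BRAF*(+) non-malignant thyroids (SE 0.12, limma, adjusted p = 0.0222). Split by lesion, *Braf* was higher by 0.83 in *BRAF*(+) than in *BRAF*(-) BHL (limma, adjusted p = 0.00257). In AT the difference was 0.22 and did not pass (limma, adjusted p = 0.709). PTC exceeded *BRAF*(+) AT by 0.49 (limma, adjusted p = 0.0149). How far the *Braf* signal reads the human transgene was not tested. Over the 29 *BRAF*(+) mice, group means removed, its r was 0.68 with *Etv1* (rho 0.66, permutation p = 3e-05 and 0.00013, adjusted 6e-05 and 0.00039). With *Etv4* r was 0.36 (rho 0.35, permutation p = 0.0922 and 0.0765, adjusted the same), and with *Etv5* 0.46 (rho 0.39, permutation p = 0.0194 and 0.0448, adjusted 0.0233 and 0.0537). Without the 2 mice farthest from the median of *Braf*, r was 0.57 with *Etv1* (permutation p = 0.00055), 0.18 with *Etv4* (0.405) and 0.29 with *Etv5* (0.144), so that the *Etv5* relation did not pass without those mice. Leaving out the extremes also narrows the range of *Braf*, which by itself can lower r. Within BL r was 0.87, 0.53 and 0.74 with *Etv1*, *Etv4* and *Etv5* (adjusted permutation p = 0.00345, 0.114 and 0.0135; rho 0.87, 0.30 and 0.70, adjusted 0.0124, 0.405 and 0.0607). Within PTC r was 0.78, 0.0016 and 0.0022 (adjusted permutation p = 0.0512, 0.996 and 0.996; rho 0.54, 0.067 and 0.15, adjusted 0.408, 0.866 and 0.818). Without the 2 mice farthest from the median of *Braf*, the r of *Etv1* was 0.36 in PTC (permutation p = 0.385) and 0.81 in BL (permutation p = 0.0149).

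Each member was also set against 10939 other genes at least as bright as the dimmest member, over all 38 mice with group means removed, as a description of arrays that share tissue composition. The 5 genes most like *Etv1* were *Il1rl2* (r = 0.89), the sialyltransferase gene *St8sia6* (0.88), the phosphatase gene *Ptpn13* (0.88), the growth factor gene *Pdgfd* (0.86) and *Zfp697* (0.85). Those most like *Etv4* were the kinase gene *Dyrk3* (0.84), *Ripk3*, a kinase of necroptosis (0.83), *Pdlim4* (0.82), the ephrin gene *Efnb2* (0.80) and *Capg*, an actin-capping protein (0.79). Those most like *Etv5* were *Col12a1*, a fibril-associated collagen (0.76), *Ms4a7* (0.76), the cystatin gene *Cst6* (0.74), *Gprc5a* (0.74) and the epoxide hydrolase gene *Ephx1* (0.73). None of the lists held another member: *Etv5* and *Etv4* were in places 192 and 217 for *Etv1*, *Etv1* and *Etv5* in places 134 and 177 for *Etv4*, and *Etv1* and *Etv4* in places 66 and 101 for *Etv5*. In the 29 *BRAF*(+) mice alone 3 of 5 genes were again in the list of *Etv1*, 4 of 5 in that of *Etv4* and 0 of 5 in that of *Etv5*.

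Genes around the members in the pathway moved in part with them. Of 23 transcripts known to be induced by ERK, 9 rose and 0 fell in *BRAF*(+) non-malignant thyroids (median log2 difference 0.33, against 0.02 over 19938 genes, of which 631 were higher and 515 lower). The cell cycle gene *Ccnd1* rose by 1.29 (SE 0.24, adjusted p = 0.0053), the immediate early gene *Egr1* by 1.22 (SE 0.17, adjusted p = 0.000757), the ERK phosphatase gene *Dusp5* by 1.07 (SE 0.19, adjusted p = 0.00447) and the urokinase receptor gene *Plaur* by 0.94 (SE 0.16, adjusted p = 0.00287). The study's own *BRAF* signature, drawn from these same mice, already holds *Ccnd1* and *Plaur*, so the count is not independent of it. In PTC against *BRAF*(-) AT 12 of the 23 rose and 0 fell (median 0.52), and in BL 9 rose and 0 fell (median 0.36). Over the 19938 genes 2257 were higher and 2293 lower in PTC (median -0.04), and 1443 higher and 1354 lower in BL (median -0.03), several times the numbers for *BRAF* status. Among 5 repressors and degraders of PEA3 factors only *Cic* passed in *BRAF*(+) thyroids, and it was higher, by 0.33 (adjusted p = 0.0385). In PTC against *BRAF*(-) AT *Cic* (0.43, adjusted p = 0.0124) and *Cop1* (0.39, adjusted p = 0.016) were both higher.

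Of 22 other ETS factors measured, 0 rose and 0 fell by limma for *BRAF* status (median 0.10), where 631 of 19938 genes were higher and 515 lower. A count of 0 in 22 is near that share. *Ets1*, *Ets2*, *Erg* and *Fli1* had differences of -0.05, -0.0025, 0.04 and 0.21, with adjusted p from 0.438 to 0.994. In PTC against *BRAF*(-) AT, where 2257 of 19938 genes were higher and 2293 lower, 6 rose and 2 fell (median 0.15), among them the myeloid factor gene *Spi1* (0.94, adjusted p = 0.017) and *Etv3* (0.46, adjusted p = 0.00398), with *Spdef*, an epithelial ETS factor, lower (-0.42, adjusted p = 0.0133). Upstream of the members, 1 of 8 receptor genes rose and 2 fell in *BRAF*(+) non-malignant thyroids: *Met*, the hepatocyte growth factor receptor, rose by 0.54 (adjusted p = 0.0179), and *Egfr* (-0.54, adjusted p = 0.0149) and *Fgfr2* (-0.53, adjusted p = 0.0057) fell. In PTC against *BRAF*(-) AT 1 of the 8 rose and 4 fell, against 2257 and 2293 of 19938 genes, and *Ret* was lower, by -0.87 (adjusted p = 0.0136). Of 6 FGF ligands only *Fgf10* passed for *BRAF* status, lower by -0.40 (adjusted p = 0.0129). Of 5 measured genes of the MAPK cascade, 0 passed for *BRAF* status, and *Araf* and *Nras* were higher in PTC against *BRAF*(-) AT (0.20 and 0.29, adjusted p = 0.0253 and 0.0397). The counts of receptors, FGF ligands and MAPK genes for *BRAF* status stand against the same 631 higher and 515 lower of 19938 genes.

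Downstream, 4 of 10 genes described as PEA3 targets rose and 0 fell in *BRAF*(+) non-malignant thyroids (median 0.27), where 631 of 19938 genes were higher and 515 lower. They were the prostaglandin synthase gene *Ptgs2* (0.76, adjusted p = 0.046), the adhesion molecule gene *Icam1* (0.70, adjusted p = 0.00254), the receptor gene *Erbb2* (0.68, adjusted p = 0.00168) and *Met*, which is also counted among the receptors. *Ptgs2*, *Icam1* and *Met* are in the signature that the study drew from these same mice, so this count is not independent of it either. In PTC against *BRAF*(-) AT 5 rose and 1 fell, the matrix metalloproteinase gene *Mmp7* (-0.32, adjusted p = 0.0142), and in BL 3 rose and 1 fell, where 2257 and 2293 of 19938 genes were higher and lower in PTC, and 1443 and 1354 in BL.

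**Figure D5:**
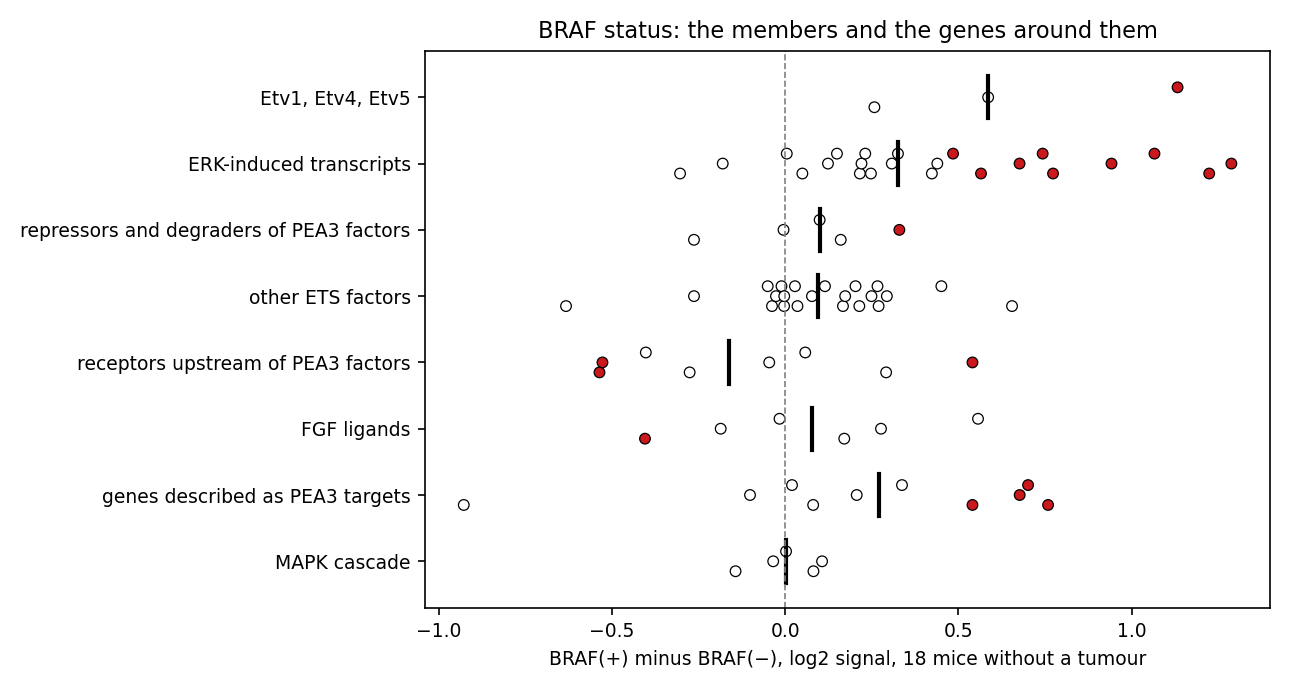
Log2 difference of BRAF(+) minus BRAF(-) in the 18 non-malignant mice (horizontal axis) for the 3 members and 7 lists of pathway genes (rows), 1 point per gene, filled red where the adjusted p is under 0.05, with a bar at each median. The 9 red ERK-induced transcripts all lie to the right, and 0 of 22 other ETS factors is red, where 631 of 19938 genes were higher and 515 lower.

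Marker genes of several tissues differed between the same groups, and the part of tissue composition in the members' differences was not tested. The mean log2 signal of 9 thyrocyte genes lay between 8.71 and 10.07 over the 38 arrays. For *BRAF* status 2 of these 9 fell, *Dio1* (-1.61, adjusted p = 0.0231) and the iodide transporter gene *Slc5a5* (-1.13, adjusted p = 0.0314), and 4 of 7 adipocyte genes fell, where 631 of 19938 genes were higher and 515 lower. The mean adipocyte signal ranged from 7.78 to 8.90 in *BRAF*(+) BHL, against 8.84 to 9.87 in *BRAF*(-) BHL, and from 8.26 to 9.26 in *BRAF*(+) AT, against 9.13 to 9.75 in *BRAF*(-) AT. Skeletal muscle genes (0 of 10 called for *BRAF* status or in BHL) had a mean of 5.28 to 5.56 in *BRAF*(+) BHL, against 5.33 to 9.62 in *BRAF*(-) BHL, and of 5.24 to 5.42 in *BRAF*(+) AT, against 5.20 to 9.91 in *BRAF*(-) AT. Brown adipocyte genes (0 of 5 called for *BRAF* status, but 4 of 5 lower in *BRAF*(+) against *BRAF*(-) BHL, with *Ucp1* at -3.96, adjusted p = 0.0448, and *Cox7a1* at -2.54, adjusted p = 0.00286) had a mean of 5.66 to 9.76 in *BRAF*(+) BHL, against 8.26 to 10.28 in *BRAF*(-) BHL. In PTC against *BRAF*(-) AT 5 of 9 macrophage genes rose, with means of 8.28 to 9.25 in PTC, against 7.72 to 8.79 in *BRAF*(-) AT. In the same comparison 5 of 5 brown adipocyte, 5 of 7 adipocyte, 5 of 9 thyrocyte and 2 of 2 measured Schwann cell genes fell, where 2257 of 19938 genes were higher and 2293 lower. The brown adipocyte mean was 5.04 to 8.01 in PTC, against 7.59 to 10.09 in *BRAF*(-) AT, and the thyrocyte mean 8.72 to 9.67 in PTC, against 9.66 to 10.07 in *BRAF*(-) AT. With the muscle, adipocyte and brown adipocyte means as covariates, the *Etv1* difference for *BRAF* status was 0.78 (SE 0.33) and no longer passed (adjusted p = 0.406), whereas all 3 members kept their call in PTC against *BRAF*(-) AT. Calls over all probe sets fell as well. For *BRAF* status 9 were higher and 2 lower (780 and 678 without the covariates). The counts were 74 and 9 (1060 and 1293) in *BRAF*(+) against *BRAF*(-) BHL, and 1454 and 1063 (3484 and 3202) in PTC against *BRAF*(-) AT. With these covariates *BRAF*(+) against *BRAF*(-) BHL no longer passed for *Etv1* (1.18, adjusted p = 0.105) or *Etv4* (0.90, adjusted p = 0.11). BL against *BRAF*(-) AT no longer passed for *Etv4* (0.51, adjusted p = 0.0999) or *Etv5* (0.45, adjusted p = 0.199), nor BL against *BRAF*(-) BHL for *Etv1* (0.91, adjusted p = 0.164) or *Etv4* (0.70, adjusted p = 0.169). The *Etv1* difference in BL against *BRAF*(+) AT (0.51, adjusted p = 0.177) and the *Etv5* difference in PTC against *BRAF*(+) AT (0.57, adjusted p = 0.064) did not pass either. Over all probe sets the counts with the covariates were 703 and 396 (2150 and 1925) in BL against *BRAF*(-) AT, and 85 and 5 (876 and 886) in BL against *BRAF*(-) BHL. They were 47 and 69 (704 and 567) in BL against *BRAF*(+) AT, and 1272 and 777 (3020 and 2289) in PTC against *BRAF*(+) AT.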

How the data were processed

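RNA of 38 mouse thyroids was hybridised to 1 array each. The deposited values are log2 signals of 35556 probe sets, made by the authors with RMA, of no stated version. Array medians lay between 6.00 and 6.15, and no array was left out. Arrays have no read depth, so the number of mice limits the precision. Gene names came from the platform annotation, with 21789 probe sets of a single symbol, 1621 of several symbols, which were not named, and 12146 not listed. Groups came from the sample labels. Differences were fitted with limma 3.58.1 in R 4.3.3 (lmFit and eBayes) on all probe sets, with Benjamini-Hochberg adjusted p under 0.05 as the threshold. *BRAF* status was fitted over 18 non-malignant mice with lesion and sex, its interaction with lesion in a further model, and the other comparisons in a model of 6 groups and sex over 38 mice. The fits were tested on simulated data. Correlations used 100000 permutations in Python 3.11.15. The labels name a kit of the 3' type, while the array is a whole-transcript design, and its effect on the signals is not known.

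Named genes were the members, *Braf*, the 5 genes most like each member, and, for each pathway or marker list, at most 4 genes, those called for *BRAF* status with the largest difference or else the first in the list. Genes named for PTC against *BRAF*(-) AT (*Spi1*, *Etv3*, *Spdef*, *Ret*, *Araf*, *Nras*, *Mmp7*, *Cop1*) were chosen after their values were seen. The members, lists and tests were chosen with earlier results of these data known. Alternatives were the flat filter of the study, centring of arrays, no sex term, age, tissue scores, limma with trend and robust variance, females only, permutation of the mean difference, the mean of a gene's probe sets, leaving out each mouse, and, chosen after seeing the data, the other probe set. Each mouse number occurs in 1 group, so no pairing was made.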

Additional observations from a re-analysis of the deposited data

Results flagged for a closer look

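The *Etv4* signal of PTC mouse M_686 was 7.22, and the other 9 PTC mice lay between 6.48 and 6.87. Its gap to the next mouse was 0.47 of the range of the group, just over the limit for 10 values. It was the 1 value set apart among 18 combinations of member and group, and chance sets apart about 1 in 20 such groups. Without M_686 *Etv4* was still called higher in PTC against *BRAF*(-) AT.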

How the results depend on the processing

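Apart from leaving out mice, 389 of 417 repeated values of the members kept their direction and their side of the threshold. With the muscle and adipocyte means as covariates, the log2 difference no longer passed for *Etv1* in *BRAF* status (0.78), in *BRAF*(+) against *BRAF*(-) BHL (1.18), in BL against *BRAF*(+) AT (0.51) and in BL against *BRAF*(-) BHL (0.91), for *Etv4* in BL against *BRAF*(-) AT (0.51), in *BRAF*(+) against *BRAF*(-) BHL (0.90) and in BL against *BRAF*(-) BHL (0.70), and for *Etv5* in BL against *BRAF*(-) AT (0.45) and PTC against *BRAF*(+) AT (0.57). The sign turned for *Etv5* in BL against *BRAF*(-) BHL (-0.012) and *Etv4* in PTC against *BRAF*(+) BHL (-0.018), neither of which passed before. In females only, BL against *BRAF*(-) AT was lost for *Etv4* (0.57) and *Etv5* (0.53), and *Etv4* in PTC against *BRAF*(+) BHL was -0.078. The flat filter, which tests 4388 probe sets kept for their spread over the same mice, added *Etv4* in *BRAF* status (0.59) and *Etv1*, *Etv4* and *Etv5* in *BRAF*(+) BHL against *BRAF*(+) AT (1.03, 0.72 and 0.80). Without the sex term *Etv4* in *BRAF* status passed (0.60), and *Etv5* in PTC against *BRAF*(+) BHL was 0.0039. *Etv1* in BL against *BRAF*(+) AT lost its call under the flat filter (0.72), without the sex term (0.72), with age added (0.72), in females only (0.52) and with the other probe set (0.71), and *Etv5* in BL against *BRAF*(-) AT lost it with the other probe set (0.62). By exact permutation of the plain mean difference, read at an unadjusted p of 0.05, *Etv5* in *BRAF*(+) against *BRAF*(-) BHL (0.51) did not pass (p = 0.2), and in PTC against *BRAF*(+) BHL it was 0.0039. The interaction was not run by permutation. On the deposited values, group means kept, *Etv4* correlated with *Braf* (r = 0.61), and *Etv5* with *Braf* no longer did without the 2 farthest mice (r = 0.29). The cause of these changes was not tested.

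Over all probe sets, *BRAF* status called 780 higher and 678 lower, against 517 and 366 after the flat filter, 474 and 408 in females only, and 9 and 2 with the tissue covariates. Centring each array on its median left every call of the members as it was, but shifted the split of higher and lower calls: to 1749 and 3186 (from 2150 and 1925) in BL against *BRAF*(-) AT, 817 and 1587 (from 1060 and 1293) in *BRAF*(+) against *BRAF*(-) BHL, 2649 and 3597 (from 3020 and 2289) in PTC against *BRAF*(+) AT, 677 and 1588 (from 704 and 567) in BL against *BRAF*(+) AT, 1715 and 2404 (from 2142 and 1945) in PTC against *BRAF*(-) BHL, 691 and 1268 (from 876 and 886) in BL against *BRAF*(-) BHL, and 32 and 83 (from 8 and 8) in *BRAF*(+) BHL against *BRAF*(+) AT.

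Leaving out 1 mouse at a time changed 37 of 624 fits. The range of log2 differences was 0.50 to 0.68 for *Etv4* in *BRAF* status, 0.59 to 0.77 for *Etv5* in BL against *BRAF*(-) AT, and 0.53 to 0.88, 0.42 to 0.64 and 0.46 to 0.67 for *Etv1*, *Etv4* and *Etv5* in BL against *BRAF*(+) AT. It was 0.84 to 1.19 and 0.61 to 0.83 for *Etv1* and *Etv4* in *BRAF*(+) BHL against *BRAF*(+) AT, 0.37 to 0.77 for *Etv5* in *BRAF*(+) against *BRAF*(-) BHL, 0.36 to 0.76 for *Etv5* in PTC against *BRAF*(-) BHL, 0.14 to 0.54 in BL against *BRAF*(-) BHL, and 0.14 to 0.55 in *BRAF*(-) BHL against *BRAF*(-) AT. For PTC against *BRAF*(+) BHL it was -0.11 to 0.033, -0.047 to 0.056 and -0.091 to 0.035 for *Etv1*, *Etv4* and *Etv5*. No paired analysis was possible because each mouse number occurs in a single group.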
